A study of Homo sapiens with 8 samples.

Results

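The genes examined here are 10 members of the epithelial-mesenchymal transition programme: the cadherins CDH1, CDH2 and CDH3, the structural and matrix genes VIM and FN1, and the transcription factors ZEB1, ZEB2, SNAI1, SNAI2 and TWIST1. They were taken by gene name, and all 10 were found among the 16547 genes of the mRNA count table. Peaks carrying these names numbered 11 of 20499 in the lists of N1-methyladenosine (m1A) sites on mRNA. The study profiled the established human bladder cancer cell line 5637, after stable TRMT61A knockdown and in control cells, to compare m1A and RNA levels. Each group had 2 samples, and each sample gave an input library and a library enriched with an antibody to m1A. The knockdown samples carry TRMT61A knockdown in their labels and SH in their titles. The control samples are labelled as wild type but carry NC in their titles. The sequence used for the knockdown, what the control cells received, and whether the line was 1 clone were not given in the sources used here. Nothing in the labels says that the samples of a group were separate cultures, so p-values measure only the spread between these samples.

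In the epithelial-mesenchymal transition, epithelial cells lose cell-cell junctions built on E-cadherin and gain motility and matrix production, and carcinoma cells can hold intermediate states. ZEB, SNAI and TWIST factors drive the programme, the ZEB and SNAI proteins by binding E-box sequences in promoters such as that of CDH1. TRMT61A is the catalytic subunit of the complex that methylates adenosine at position N1 in transfer RNA and in some messenger RNAs.

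Input libraries held 38989448 and 37912238 mRNA counts in the knockdown, and 30046283 and 42177927 in the control. TRMT61A measured 13.4 and 6.71 CPM (counts scaled by library size) in knockdown replicates 1 and 2, against 19.8 and 14.7 CPM in control replicates 1 and 2. The groups did not overlap, but the gap between the higher knockdown and the lower control library was small. The log2 fold change, knockdown over control throughout, was -0.78 ± 0.29 (SE), with an adjusted p of 1.00 by the edgeR quasi-likelihood test after Benjamini-Hochberg adjustment. Without knockdown replicate 1 it was -1.36, and without knockdown replicate 2 it was -0.36. Each of these fits holds a lone knockdown library, so no spread within the knockdown enters it. Of 18 urothelial markers 17 were in the table, and keratins 5, 7, 8, 18 and 19 with TP63, GATA3 and PPARG were expressed, while the uroplakins UPK1A, UPK1B, UPK2 and UPK3A were at or near 0. The urothelial markers summed to 5016 and 5275 CPM in the knockdown, against 4658 and 5389 CPM in the control. The sum hides differences between single markers, none of which passed the edgeR test. Fitted log2 fold changes were above 0 for KRT5, KRT6A, KRT14, KRT17, TP63, GATA3 and FOXA1, with KRT6A at 0.42 ± 0.09. They were below 0 for KRT7, KRT8, KRT18, KRT19, EPCAM and PPARG. The 6 immune markers summed to 0.624 to 1.65 CPM and the 5 endothelial markers to 1.496 to 2.62 CPM over the 4 inputs.

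No member passed the test between knockdown and control inputs. edgeR called 0 of the 10 at an adjusted p under 0.05, as did DESeq2 and limma-voom, and over all 13362 genes tested edgeR called 5, or 0.0374%. At an unadjusted p under 0.05 edgeR gave 1 member, ZEB1, against 3.3% of all genes tested. The groups did not overlap for 3 members, ZEB1, SNAI1 and SNAI2, against 30.3% of all genes tested. Fitted log2 fold changes were above 0 for 3 members and below 0 for 7, and above 0 for 49.8% of all genes tested. All 10 passed the filter on low counts, but ZEB1 did so only through its control level. In bulk RNA, fewer cells expressing a gene and less RNA per cell cannot be told apart.

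**Figure D1:**
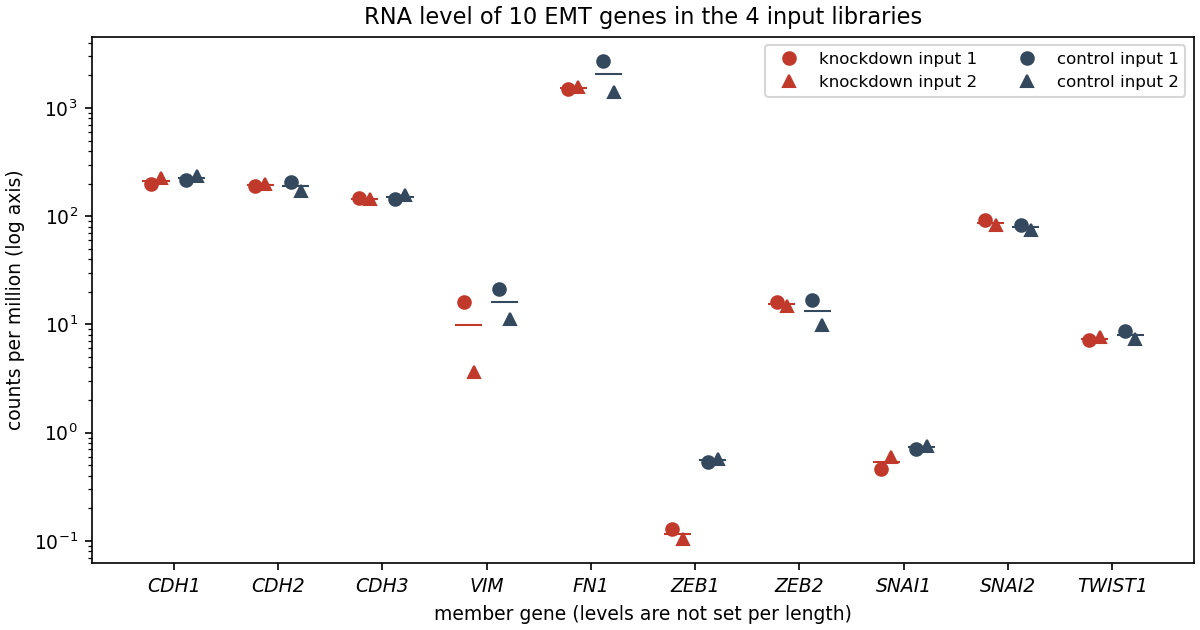
Level of each of the 10 genes in the input libraries, in CPM on a log axis, with knockdown replicates left of control replicates, a point for each library and a line at each group's mean. ZEB1 lies near 0.1 CPM in both knockdown libraries and near 0.5 CPM in both control libraries, and FN1 exceeds 1000 CPM in all 4.

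The cadherins, which join neighbouring cells through calcium-dependent adhesion, are taken first, and none passed the test. CDH1, which encodes E-cadherin of epithelial adherens junctions (chr16:68737292-68835537), measured 197 and 224 CPM in the knockdown, against 216 and 236 CPM in the control. The groups overlapped, with a log2 fold change of -0.11 ± 0.09 (SE). CDH2 encodes N-cadherin, typical of neural and mesenchymal cells (chr18:27932879-28177130), and it measured 188 and 199 CPM in the knockdown, against 207 and 172 CPM in the control. Both knockdown values lay between the control values, and the log2 fold change was 0.03 ± 0.10. CDH3 encodes P-cadherin, found in basal epithelial layers (chr16:68645310-68733771). Its levels were 146.2 and 143 CPM in the knockdown, against 145.6 and 155 CPM in the control, with a log2 fold change of -0.06 ± 0.07. E-, N- and P-cadherin transcripts were thus each measured at over 100 CPM in every library of both groups.

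VIM and FN1, the mesenchymal products, had replicates that stood far apart, for VIM in both groups and for FN1 in the control. VIM, the intermediate filament protein vimentin of mesenchymal cells (chr10:17228241-17237593), measured 16.0 and 3.64 CPM in the knockdown, against 21.4 and 11.1 CPM in the control. The groups overlapped, and knockdown replicate 2 stood lowest. The log2 fold change was -0.72 ± 0.55. Without knockdown replicate 1 it was -2.15 with an edgeR adjusted p of 0.000325, and over the 4 fits that leave out a library it ran up to -0.02. The fit without knockdown replicate 1 called 0.987% of all genes it tested. FN1, the matrix protein fibronectin (chr2:215360865-215436068), measured 1489 and 1575 CPM in the knockdown, against 2739 and 1393 CPM in the control. Control replicate 1 stood far above the other 3 libraries, and both knockdown values lay between the control values. The log2 fold change was -0.43 ± 0.24. Without control replicate 2 it was -0.84 with an edgeR adjusted p of 0.0181, in a fit that called 0.0807% of all genes, and without control replicate 1 it was 0.14. Fibroblast markers, 9 genes of which COL1A1 made up most, summed to 39.4 and 53.6 CPM in the knockdown, against 47.4 and 48.7 CPM in the control. Their part in the VIM and FN1 values was not tested.

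Of the transcription factors, ZEB1 had the largest fitted difference. ZEB1, a zinc-finger repressor of CDH1 (chr10:31318417-31529804), had 5 and 4 counts in the knockdown inputs, against 16 and 24 counts in the control inputs. These are 0.129 and 0.104 CPM in the knockdown, against 0.540 and 0.567 CPM in the control, with no overlap. The log2 fold change was -2.22 ± 0.69, with an unadjusted p of 0.0113 and an adjusted p of 1.00 by edgeR's quasi-likelihood test. It ran from -2.38 to -2.07 in the fits that leave out a library. Because ZEB1 passed the filter on low counts only through its control level, neither this range nor the unadjusted p is support for a difference. The whole comparison rests on 9 counts in the knockdown and 40 in the control.

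Its paralog ZEB2 (chr2:144384081-144520119), also a repressor of CDH1, measured 16.2 and 14.9 CPM in the knockdown, against 16.6 and 9.81 CPM in the control. Control replicate 2 was low and the other 3 libraries were close together, so the groups overlapped. The log2 fold change was 0.24 ± 0.23, and without control replicate 2 it was -0.10. SNAI1, the Snail repressor (chr20:49982980-49988886), had 18 and 23 counts in the knockdown, against 21 and 32 counts in the control. At 0.464 and 0.598 CPM in the knockdown, against 0.708 and 0.756 CPM in the control, the groups did not overlap, and the log2 fold change was -0.46 ± 0.51. SNAI2, the Slug repressor (chr8:48917598-48921429), was the member whose knockdown levels both lay above the control. It measured 91.5 and 82.7 CPM in the knockdown, against 82.3 and 75.05 CPM in the control, with a log2 fold change of 0.15 ± 0.09. TWIST1, a basic helix-loop-helix factor (chr7:19113047-19117636), measured 7.17 and 7.57 CPM in the knockdown, against 8.60 and 7.40 CPM in the control. The groups overlapped, with a log2 fold change of -0.12 ± 0.18.

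**Figure D2:**
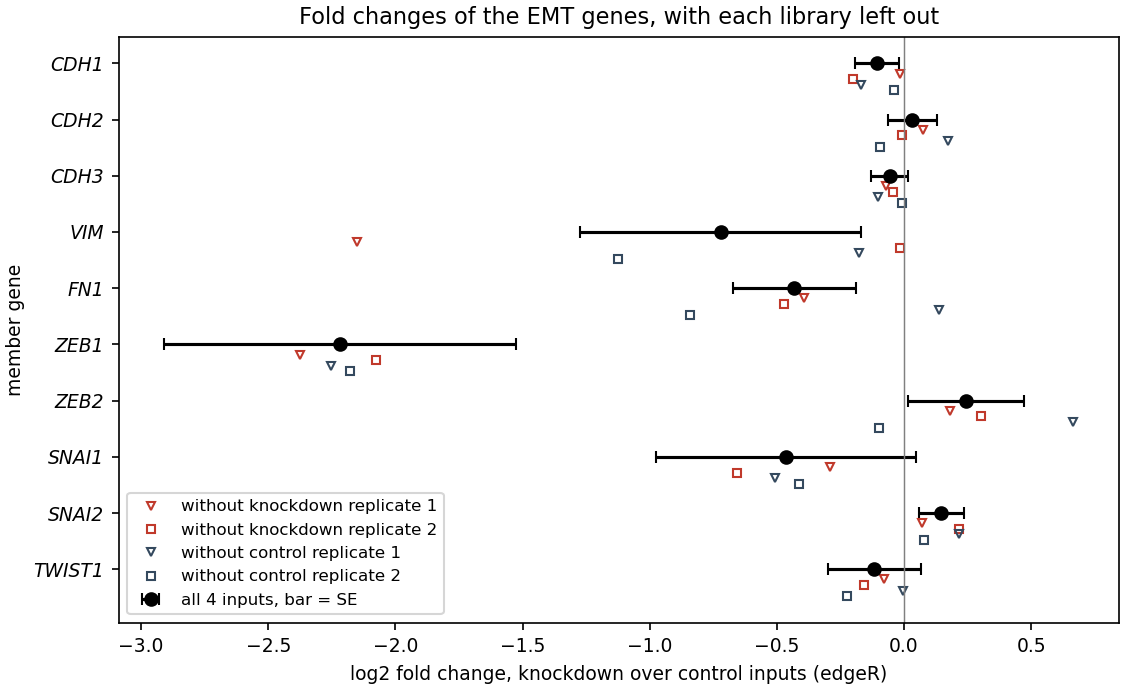
Log2 fold change of each of the 10 genes, knockdown over control inputs, with filled points and bars of 1 SE from all 4 inputs (edgeR) and open symbols for fits that leave out a library. ZEB1 stands at -2.22 and VIM at -0.72, the cadherins and TWIST1 lie within 0.12 of 0, and with all 4 inputs no gene passed the test.

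Noncoding transcripts under the members' names, or under those names as antisense genes, numbered 38 of 48055, and 18 had enough counts to test. edgeR called 0 of the 18, DESeq2 and limma-voom also called 0, and edgeR called 0.0219% of all transcripts tested. At an unadjusted p under 0.05 there was 1 of the 18, against 4.55% of all transcripts tested. That transcript, ENST00000629955 of ZEB2 (chr2:144503662-144518007, minus strand), is named because of its values. It had 50 and 57 counts in the knockdown, against 19 and 9 counts in the control, with no overlap. Its log2 fold change was 1.76 ± 0.46, with an edgeR adjusted p of 0.692. Without control replicate 1 it was 2.64, with an edgeR adjusted p of 0.00960, in a fit that called 0.0932% of all transcripts, and without control replicate 2 it was 1.13. It overlaps ZEB2 exons on their strand, so its reads cannot be told apart from those of the coding gene. ZEB1-AS1, the antisense RNA at the ZEB1 start, had 20 and 30 counts in the knockdown, against 19 and 14 counts in the control, with a log2 fold change of 0.45 ± 0.53. Scaled by library size these are 9.33 and 14.5 CPM in the knockdown, against 11.5 and 6.25 CPM in the control, so the groups overlapped.

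For the other genes of the programme 123 names, some of them older symbols of a gene also listed, stood in 8 lists. Of these, 116 were in the table and 102 were tested, with 55 above and 47 below 0, where 49.8% of all genes tested were above 0. edgeR called 0 of the 102, limma-voom 0 and DESeq2 1, KLF5, and 5 had an unadjusted edgeR p under 0.05. Over all genes tested, DESeq2 called 0.18%, and 3.3% had such an unadjusted p. Among 11 catenins and cadherin partners, 6 were higher and 5 lower in the knockdown, with a median log2 fold change of 0.02 against -0.00 over all genes tested. NECTIN2, a cell-adhesion protein, stood at -0.20 ± 0.09 and NECTIN1, of the same family, at 0.17 ± 0.08. EPCAM, an epithelial adhesion molecule, stood at -0.22 ± 0.10. Among 12 epithelial regulators the median was 0.07, with 8 higher and 4 lower. KLF5, a zinc-finger factor of basal epithelia, measured 702 and 767 CPM in the knockdown, against 552 and 589 CPM in the control, with no overlap. Its log2 fold change was 0.36 ± 0.08, with an adjusted p of 0.777 by edgeR and 0.0104 by DESeq2. ESRP1, an epithelial splicing factor, stood at -0.17 ± 0.07, and ELF3, an epithelial ETS factor, at -0.24 ± 0.10.

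Among 13 other transcription factors and cofactors of the programme the median log2 fold change was 0.07, with 8 higher and 5 lower. TCF4, a basic helix-loop-helix factor, stood at 0.29 ± 0.19, and SUZ12, a Polycomb subunit, at 0.10 ± 0.07. Among 11 genes that set SNAI1 and TWIST1 protein stability, 7 were higher and 4 lower, with a median of 0.01. LOXL2, a lysyl oxidase, stood at -0.34 ± 0.16, and COPS2, a COP9 signalosome subunit, at 0.10 ± 0.07. FBXL14, a ubiquitin ligase component that targets SNAI1, stood at -0.23 ± 0.21. Of 20 TGF-beta signalling genes, 9 were higher and 11 lower, with a median of -0.00. LTBP3, which binds latent TGF-beta, stood at -0.24 ± 0.14, and the receptors BMPR2 and TGFBR1 at 0.14 ± 0.09 and 0.15 ± 0.09.

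Of 17 mesenchymal and matrix products tested, 9 were higher and 8 lower, with a median log2 fold change of 0.00. MMP2, a gelatinase, stood at -0.25 ± 0.12, and ACTA2, smooth muscle actin, at -0.63 ± 0.32. Among 9 fibronectin receptors and assembly genes, 5 were higher and 4 lower, with a median of 0.10. TGM2, a transglutaminase that crosslinks fibronectin, stood at -0.36 ± 0.21, ITGA5, the alpha subunit of the fibronectin receptor, at 0.23 ± 0.14, and SDC4, a syndecan, at 0.13 ± 0.08. Among 9 genes of intermediate filaments and their partners, 3 were higher and 6 lower, with a median of -0.04. LMNB1, a nuclear lamin, stood at -0.26 ± 0.14, DSP, which anchors filaments at desmosomes, at 0.12 ± 0.08, and the keratin KRT18 at -0.11 ± 0.08. Fits that leave out a library were read only for the genes named from each list, which were picked by their p in the main fit. Without knockdown replicate 1 the log2 fold changes were 0.43 for KLF5, -0.45 for MMP2 and -0.77 for TGM2. Without knockdown replicate 2 they were 0.30 for KLF5, -0.07 for MMP2 and -0.03 for TGM2. These 3 genes are shown because of their values in the first of these fits.

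**Figure D3:**
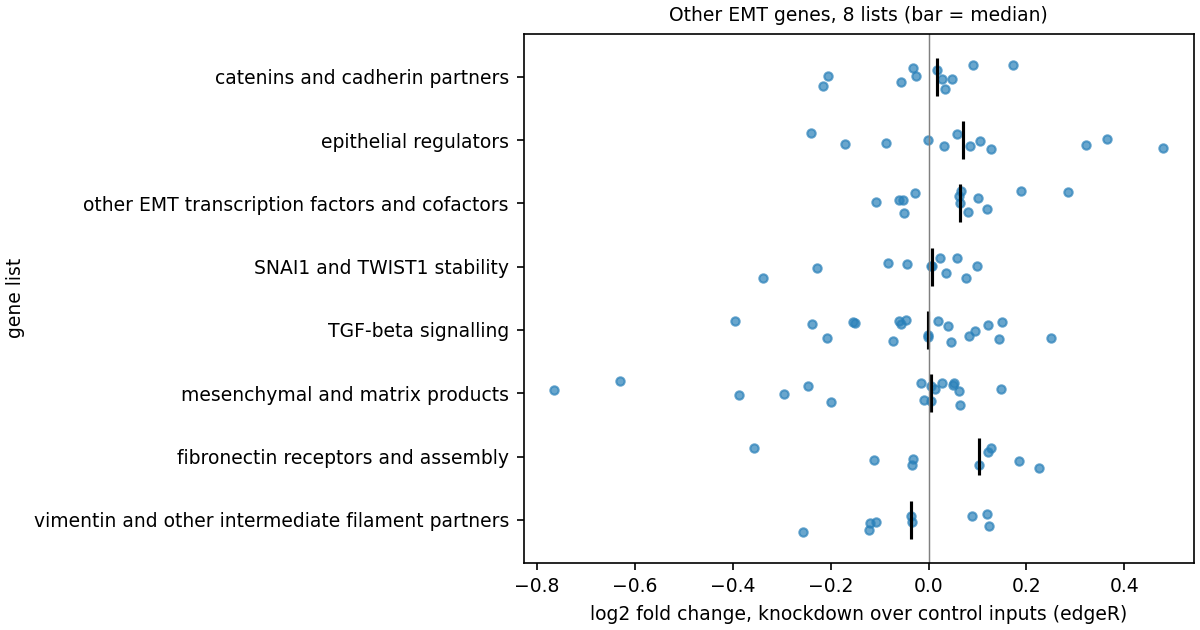
Log2 fold change of the tested genes in 8 lists of the programme, knockdown over control inputs, with a point for each gene and a bar at each list's median. The list medians lie between -0.04 and 0.10.

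Peaks of m1A on mRNA under the members' names numbered 1 and 3 in knockdown lists 1 and 2, against 4 and 3 in control lists 1 and 2. The means were 2 ± 1.41 in the knockdown and 3.5 ± 0.707 in the control (SD, n = 2 each). The difference of -1.5 had an exact two-sided permutation p of 0.667, and 0.333 is the smallest p this design allows. The lists differed in length, with 5793 and 3686 peaks in the knockdown, against 6701 and 4319 in the control. Members with a peak numbered 1 and 3 of 10 in the knockdown, against 3 and 3 in the control. Of all tested genes, 30.9% and 22.3% had a peak in the knockdown lists, against 34.7% and 24.7% in the control lists.

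TWIST1 had a peak in all 4 lists, which held for 10.9% of the tested genes. ZEB2 had a peak in every list except that of knockdown replicate 1, and 8.47% of the tested genes had one in exactly 3 lists. CDH1, CDH2 and VIM each had a peak in 1 list, as did 20.2% of the tested genes. CDH3, FN1, ZEB1, SNAI1 and SNAI2 had none in the mRNA lists, as did 48.7% of the tested genes. In all, 5 of the 10 members had a peak in at least 1 list, as did 51.3% of the tested genes. The lists start at a fold of 2 and a score of 50, so a missing peak says only that none was listed above these limits.

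The TWIST1 peak covered chr7:19116860-19117463 in knockdown list 1 and chr7:19116671-19117512 in knockdown list 2, against chr7:19116671-19117467 in control list 1 and chr7:19116671-19117672 in control list 2. A stretch of 604 bases was common to all 4, near the start of this minus-strand gene. The authors' fold of immunoprecipitated over input reads was 21.09 and 15.55 in the knockdown lists, against 26.51 and 14.21 in the control lists. Between 82.5% and 95.0% of the peaks in each list had a lower fold. The folds overlapped between the groups and were not tested, because each belongs to a separately called list.

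The ZEB2 peak lay 130122 to 130937 bases after the gene's RefSeq start. It covered chr2:144389458-144389894 in knockdown list 2, against chr2:144389411-144389997 in control list 1 and chr2:144389182-144389961 in control list 2, with 437 bases in common. Its fold was 8.86 in knockdown list 2, against 11.73 and 7.79 in the control lists.

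**Figure D4:**
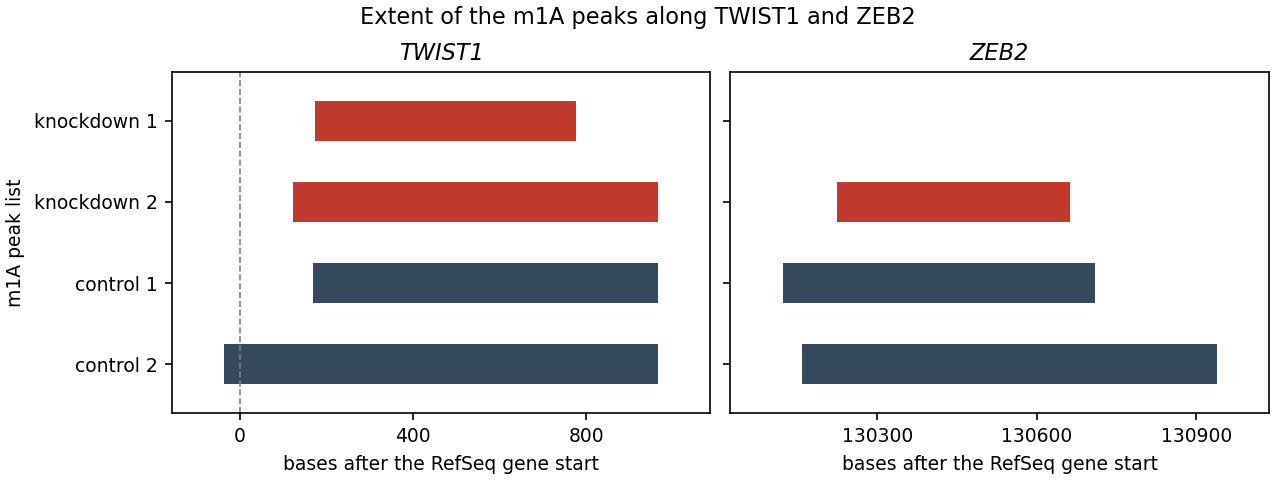
Extent of the TWIST1 and ZEB2 peaks in each list, knockdown above control, in bases after the RefSeq gene start. The TWIST1 peaks share 604 bases in all 4 lists and the ZEB2 peaks 437 bases in 3, and knockdown list 1 has no ZEB2 peak.

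For CDH1, CDH2 and VIM the peaks came from a single list each. CDH1 had both of its peaks in control list 1, at chr16:68737225-68737463 and chr16:68738297-68738411, with folds of 4.80 and 4.84. VIM had its peak in knockdown list 2, at chr10:17229276-17229985, 1035 to 1744 bases after the gene start, with a fold of 8.47. That library had the lowest VIM count, 140, against 620 in knockdown replicate 1 and 635 and 470 in the control. The last base of the peak is the 5′ end of the minus-strand VIM-AS1 transcript ENST00000605833. That transcript had 1 and 0 counts in the knockdown inputs, against 0 and 0 in the control inputs. The lists give no strand.

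CDH2 had its peak in control list 2, at chr18:28177194-28177446 with a fold of 13.83, which is 64 to 316 bases before its RefSeq start. The list itself assigns this peak to the CDH2 transcript ENST00000269141. In the lncRNA lists, ZEB1 had a peak in knockdown list 1, at chr10:31318850-31319133 with a fold of 7.03, in a stretch that partly overlaps ZEB1-AS1. The input of that sample had 5 mRNA counts for ZEB1 and 20 counts for ZEB1-AS1. Since the lists give no strand, which of these RNAs carried the peak cannot be told. The RefSeq promoter windows that these peaks enter are printed because they show the sequence under the peaks. Each gives 250 bases before a transcript start on GRCh38.p14, 5′ to 3′ on the gene's strand, with the bases inside the peak in capitals. The ZEB1 window is chr10:31318966-31319215 on the plus strand, within the annotated gene, and 168 of its bases lie in the peak. The CDH2 window is chr18:28177131-28177380 on the minus strand, and 187 of its bases lie in the peak.
ZEB1: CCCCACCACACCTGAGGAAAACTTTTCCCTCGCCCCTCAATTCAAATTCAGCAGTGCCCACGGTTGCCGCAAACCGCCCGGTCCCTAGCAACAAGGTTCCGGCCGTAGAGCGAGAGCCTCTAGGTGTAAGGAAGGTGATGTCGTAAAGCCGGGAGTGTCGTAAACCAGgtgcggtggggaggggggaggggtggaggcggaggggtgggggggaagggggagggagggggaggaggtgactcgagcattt
CDH2: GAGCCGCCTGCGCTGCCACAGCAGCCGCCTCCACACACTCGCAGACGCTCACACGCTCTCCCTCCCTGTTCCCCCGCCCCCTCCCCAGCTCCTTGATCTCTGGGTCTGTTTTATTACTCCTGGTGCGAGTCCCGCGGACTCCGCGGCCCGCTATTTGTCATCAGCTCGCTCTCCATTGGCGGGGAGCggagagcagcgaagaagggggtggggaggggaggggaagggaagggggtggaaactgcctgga

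These windows were searched on both strands for GTTCNA, a form of the T-loop motif that the TRMT61A complex methylates in transfer RNA, and for CAGGTG, an E-box form that ZEB and SNAI proteins bind. Neither window held GTTCNA, which 22.1% of 35116 RefSeq windows of this length held. The ZEB1 window held CAGGTG at 2 places, 1 of them wholly inside the peak, and 17.5% of all windows held it. The CDH2 window did not hold it. A match is a description of letters only.

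**Figure D5:**
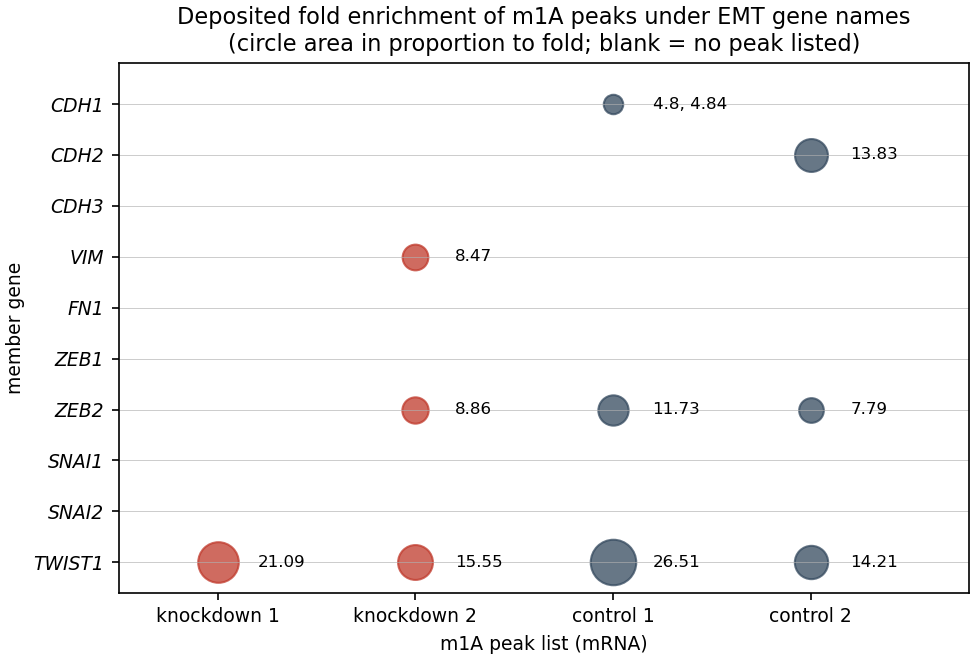
Peaks under the members' names in the 4 mRNA lists, knockdown left of control, with circle areas in proportion to the authors' fold, for CDH1 the higher of its folds. TWIST1 is filled in all 4 lists, ZEB2 in 3, and CDH3, FN1, ZEB1, SNAI1 and SNAI2 in none.

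Peaks under member names in the lncRNA lists numbered 1 and 0 in the knockdown, against 1 and 1 in the control. The difference of -0.5 had an exact two-sided permutation p of 1.00. The control peaks were both named for ZEB2, at chr2:144482169-144482341 with a fold of 4.95 in list 1 and at chr2:144516508-144516761 with a fold of 3.67 in list 2, and they do not overlap.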

How the data were processed

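Raw read counts for the 4 inputs were deposited by the authors, per the file headers, by gene for mRNA and by transcript for lncRNA. The 8 normalized columns beside them were left out. For each peak the authors' fold, a linear ratio of immunoprecipitated over input reads, and a deposited score derived from the peak caller's p-value are listed, per the file headers, in separate lists for each sample. The submitters' processing notes name HISAT2 2.0.4, HTSeq 0.9.1, STAR, edgeR and build hg38. What each tool did, and whether counting used strand, was not given in the sources used here.

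Knockdown inputs were tested against control inputs with edgeR 4.0.16 in R 4.3.3, by its quasi-likelihood test without a block, after TMM scaling and filterByExpr at a minimum count of 10. P-values were adjusted by Benjamini-Hochberg over all rows tested, with a threshold of 0.05. On simulated counts the edgeR fit recovered 88% of 2-fold changes among genes and 43% among lncRNA transcripts, with 8 and 6 false calls. Changes were set only in rows of higher counts, so rows as low as ZEB1 and SNAI1 were not covered. The simulated spread followed edgeR's fitted trend, so genes whose replicates stood far apart, such as VIM, were not covered either. These shares therefore do not say what change in a member would have been called. CPM used the TMM-adjusted library size. DESeq2 1.42.0, limma-voom from limma 3.58.1, other filters, a replicate block and leaving out each library served as alternatives. Numbers of peaks were compared by an exact permutation test. Of the gene identifiers, 16503 of 16547 matched a table of names. Gene positions and promoter sequences came from RefSeq, GRCh38.p14, where 5 of the 10 members had a promoter window. Transcript lengths were not used, so levels were not compared between genes. Every member is named, and from each list the genes past the threshold or else the 3 of smallest unadjusted p, except that 2 of these genes are not reported here. The members and lists were chosen with earlier results of these data known.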

Additional observations from a re-analysis of the deposited data

How the results depend on the processing

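The number of mRNA genes past the threshold was 5, and became 24 with DESeq2, 3 with limma-voom, 14 with no filter, and 11 to 135 when 1 library was left out. Among lncRNA transcripts it was 5, and became 24 with no filter and 18 to 32 when 1 library was left out. With the replicate number as a block, 15 genes and 22 transcripts passed. Deviations of same-numbered samples from their group means correlated at 0.048 over genes and 0.022 over transcripts, and the samples share only a number. The cause of these shifts was not tested.

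The members past the threshold numbered 0, and 0 to 1 when 1 library was left out, namely FN1 without control replicate 2 and VIM without knockdown replicate 1. The noncoding transcripts under member names past the threshold also numbered 0 with all inputs. The log2 fold change of ENST00000629955 of ZEB2 was 2.64 without control replicate 1 and 1.13 without control replicate 2. That of ENST00000492816 of FN1 was 0.32 without control replicate 1 and -0.77 without control replicate 2. Both transcripts overlap exons of their coding gene on its strand, so their reads cannot be told apart from those of that gene. The difference in mRNA peaks ran from -2.5 to -0.5 when 1 list was left out. That in lncRNA peaks, -0.5, ran from -1 to 0, and was 0.5 with a score of at least 100 and 0 with a fold of at least 4.

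Leaving out 1 library turned some directions. The ranges were -0.10 to 0.17 for CDH2, -0.84 to 0.14 for FN1, -0.10 to 0.67 for ZEB2, -0.042 to 0.55 for TCF4 and -0.21 to 0.0029 for KRT18. Noncoding transcripts ran from -0.63 to 0.68 for ENST00000562836 and -0.13 to 0.89 for ENST00000564745 of CDH1. Those of FN1 ran from -0.51 to 0.81 for ENST00000469569, -1.49 to 0.50 for ENST00000480024, -0.77 to 0.32 for ENST00000492816, -0.83 to 0.29 for ENST00000496542 and -0.97 to 0.13 for ENST00000498719. ENST00000354571 of TWIST1 ran from -0.080 to 2.46, and of ZEB2, ENST00000625161 from -0.73 to 1.58 and ENST00000472146 from -0.55 to 0.61. The last stood at -0.05 and became 0.11 with limma-voom and 0.010 with the block. All noncoding transcripts in these ranges also overlap exons of their coding gene on its strand. With 1 library left out, the lone sample is assumed to vary like the other group.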

Other observations

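The highest of the 4 input libraries was knockdown replicate 1 for 1 member and knockdown replicate 2 for 0. It was control replicate 1 for 5 members (CDH2, VIM, FN1, ZEB2 and TWIST1) and control replicate 2 for 4. Over all genes tested the shares were 21.5% and 30.5% for the knockdown libraries, and 26.1% and 22.0% for the control libraries. The lowest was knockdown replicate 1 for 3 members, knockdown replicate 2 for 3, control replicate 1 for 0 and control replicate 2 for 4. The shares of lowest over all genes tested were 21.5% and 30.4% for the knockdown, and 26.9% and 21.2% for the control. At the CDH3 start, the lncRNA lists held a peak named AC126773.2, with a fold of 3.61 in knockdown list 1 and 3.94 in control list 1.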
